A study of Mus musculus with 140 samples.

Results

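The imprinted Dlk1-Dio3 region on mouse chromosome 12 carries one of the largest groups of microRNA (miRNA) genes in placental mammals. Its non-coding transcripts (Meg3, an antisense transcript of Rtl1, Rian and Mirg) are made from the maternally inherited chromosome and release the miRNAs, while the protein-coding genes Dlk1, Rtl1 and Dio3 are expressed mainly from the paternal one. The miRNAs are best known from brain, placenta and stem cells, where many are made together from long precursors, and counts of mature miRNAs do not tell which parental copy they came from. The cluster was followed here as 51 named mature miRNAs of the locus, all 51 of which are among the 1474 miRNAs of the count table, each with a count in some library. They come from 39 hairpins.

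Small RNA was sequenced from 140 samples of 28 male wild-type C57BL6/OlaHsd mice, 5 samples from each mouse, to learn how miRNAs of the kidney's small vessels respond to acute kidney injury in sepsis. Glomeruli, arterioles, post-capillary venules and peritubular capillaries were cut out by laser microdissection, and whole kidney was not microdissected. The mice formed 7 groups of 4: cecal ligation and puncture (CLP), an operation in which the gut leaks and sepsis follows, examined at 4 h, 24 h or 72 h, a sham operation at the same times, and healthy mice at 0 h. The replicate is the mouse, all mice have the same genotype, and the labels give no age.

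The sequences that carry most of the signal are these, from RefSeq (build GRCm38.p6), written 5′ to 3′ with the seed (bases 2 to 8, which pair with targets) in capitals. The first 6 led the cluster in glomeruli or whole kidney, mmu-miR-540-3p differed between glomeruli and arterioles, and miR-1247-5p is the member whose pattern departed from theirs.
mmu-miR-127-3p: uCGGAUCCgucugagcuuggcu
mmu-miR-411-5p: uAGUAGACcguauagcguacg
mmu-miR-541-5p: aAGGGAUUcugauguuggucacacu
mmu-miR-382-5p: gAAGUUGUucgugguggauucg
mmu-miR-434-3p: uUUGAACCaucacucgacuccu
mmu-miR-543-3p: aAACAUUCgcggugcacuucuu
mmu-miR-540-3p: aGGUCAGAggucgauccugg
mmu-miR-1247-5p: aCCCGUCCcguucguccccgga

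Of the 51 members, 48 had a mature sequence in the RefSeq table, with 47 distinct seeds. The only seed shared by members was that of mmu-miR-379-3p and mmu-miR-411-3p, which differ at 2 bases over their length, shown here because reads of such a pair may be hard to assign and their separate counts are uncertain.
mmu-miR-379-3p: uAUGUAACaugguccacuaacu
mmu-miR-411-3p: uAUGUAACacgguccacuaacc

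In GRCm38.p6 the member hairpins apart from Mir1247 lie on the plus strand of chromosome 12 within 180.1 kb. Mir127, which yields mmu-miR-127-3p, lies at chr12:109592846-109592915 within an exon of Rtl1 on the opposite strand, and the miRNAs of this antisense transcript are known to match the Rtl1 message and direct its cleavage. Mir431, Mir433, Mir434 and Mir136 share that position, which makes 5 hairpins and 7 members. From Mir379 to Mir410 follow 27 hairpins and 35 members. Among these, Mir411 (chr12:109710175-109710256) and Mir543 (chr12:109717258-109717333) overlap no annotated host gene, and Mir382 (chr12:109733771-109733846) and Mir541 (chr12:109742409-109742498) lie in Mirg, the first across an exon edge and the second in an intron. Upstream, 5 hairpins with 6 members run from Mir770 to Mir665 and include Mir540 (chr12:109586080-109586146), outside annotated genes. Mir1247 stands apart. It lies 534.3 kb downstream of the last other hairpin, on the minus strand at chr12:110278048-110278129, in an exon of Dio3os, a non-coding RNA that starts beside Dio3.

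The cluster was a small part of kidney miRNA. Levels are counts per 1000000 miRNA counts after TMM scaling (CPM), which evens out libraries ruled by a few abundant miRNAs, or plain shares of miRNA counts where said so. Without the 2 strands of miR-1247, the 49 other members took 0.23% of all miRNA counts in glomeruli, 0.129% in arterioles, 0.0993% in post-capillary venules, 0.0268% in peritubular capillaries and 0.073% in whole kidney, each pooled over 28 libraries. Over single libraries the share ran from 0.116% to 0.347% in glomeruli, and from 0.0359% to 0.184% in arterioles. In peritubular capillaries it ran from 0% to 0.145%, with 9 of 28 libraries at 0, and in whole kidney from 0.0433% to 0.14%. Of the 51 members, 50 had a count in some glomerular library, 47 in arterioles, 41 in venules, 20 in peritubular capillaries and 51 in whole kidney.

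These numbers rest on very different depths. The miRNA count of a library was 77258 to 1352025 in glomeruli, 19307 to 569283 in arterioles, 15148 to 567040 in venules, 4215 to 49456 in peritubular capillaries and 1412288 to 7921184 in whole kidney. In a typical peritubular capillary library, a count of 0 therefore still allows 120.3 CPM (3 counts, median library), against 0.659 CPM in whole kidney, and such limits cover counting error only. The mice of 24 h and 72 h had more miRNA counts than those of 0 h and 4 h (median in glomeruli 459500.5 against 165530), and CLP mice were always set against sham mice of their own set. The microdissection is visible in marker miRNAs: the smooth muscle pair miR-143-3p and miR-145a-5p summed to a median of 798470 CPM in arterioles and 84781 CPM in glomeruli, and the tubular pair miR-192-5p and miR-194-5p to 6360 CPM in peritubular capillaries, 274 CPM in arterioles and 746 CPM in glomeruli. In the peritubular capillary libraries the endothelial pair miR-126a-3p and miR-126a-5p had a median of 19768 CPM, below the 45295 CPM of glomeruli.

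**Figure D1:**
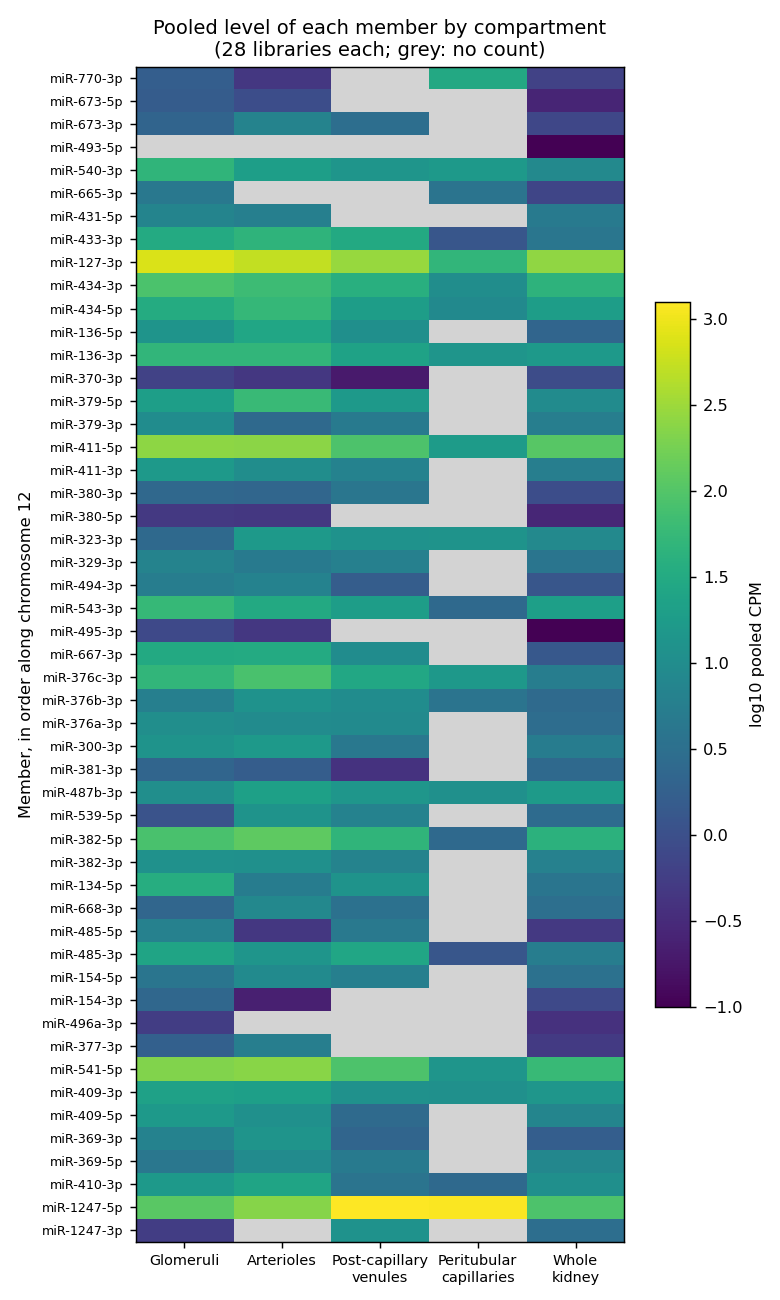
Heat map of the pooled level (log10 CPM over 28 libraries) of all 51 members, in order along chromosome 12, in 5 compartments; grey cells had no count. mmu-miR-127-3p is brightest in glomeruli, arterioles and whole kidney, most cells of peritubular capillaries are grey or dark, and mmu-miR-1247-5p is brightest in venules and peritubular capillaries.

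A few members carried the cluster. mmu-miR-127-3p alone took 30.1% of the 138761 counts of all members, and the 4 with the most counts (mmu-miR-127-3p, mmu-miR-1247-5p, mmu-miR-411-5p and mmu-miR-541-5p) took 63.9%. At the other end, 5 members had fewer than 100 counts over all libraries, and mmu-miR-493-5p had 5, all in whole kidney. The leaders were largely shared outside peritubular capillaries: of the 8 members with the highest mean CPM in whole kidney, 7 were among the 8 highest in glomeruli, 7 in venules, 6 in arterioles and 4 in peritubular capillaries. The position groups took similar parts in 4 kinds of sample. Of the counts of the 49 members, the miRNAs antisense to Rtl1 took 48.5% in glomeruli, 41.5% in arterioles, 46.2% in venules and 47.8% in whole kidney, and the Mir379 to Mir410 group took 48.6%, 57.0%, 51.9% and 50.6% in the same order. Peritubular capillaries, with 181 such counts, had 36.5% and 41.4% in these groups and 22.1% in the Mir770 to Mir665 group, which took 1.47% to 2.92% in the other 4. That 22.1% is 40 counts, of which 24 were mmu-miR-770-3p in 1 library and 13 were mmu-miR-540-3p in 1 library. The table also holds 45 other mature miRNAs of the locus, with 6297 counts in all, led by miR-337-5p with 1366 and miR-341-3p with 1326. Between 1 and 8 of them could be tested in a comparison, and 0 passed the threshold in any comparison in which one was tested.

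Glomeruli and arterioles held the most of the cluster. mmu-miR-127-3p ran from 320 to 1283 CPM in the 28 glomerular libraries (median 699) and from 177 to 1130.1 CPM in the arteriole libraries (median 573). In venules it ran from 0 to 2310.1 CPM (median 272), in whole kidney from 155 to 472 CPM (median 256). Only 8 of 28 peritubular capillary libraries had any count of it, with 405 CPM as the highest value. The single-library ranges of glomeruli, arterioles, venules and whole kidney overlapped. mmu-miR-411-5p had medians of 236 CPM in glomeruli, 193 CPM in arterioles, 57.2 CPM in venules and 102 CPM in whole kidney, and 3 of 28 peritubular capillary libraries had a count. mmu-miR-541-5p had medians of 152, 211, 73.8 and 55.6 CPM in that order and a count in 2 of 28 peritubular capillary libraries. Pooled over libraries, mmu-miR-127-3p had 725 CPM in glomeruli (95% Poisson interval 710 to 740), 523 CPM in arterioles (502 to 545), 294 CPM in venules (280 to 310), 49.1 CPM in peritubular capillaries (34.9 to 67.1, from 39 counts) and 260.0 CPM in whole kidney (257 to 263). These intervals cover counting error only and leave out the spread between mice, so they do not test a difference between compartments.

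**Figure D2:**
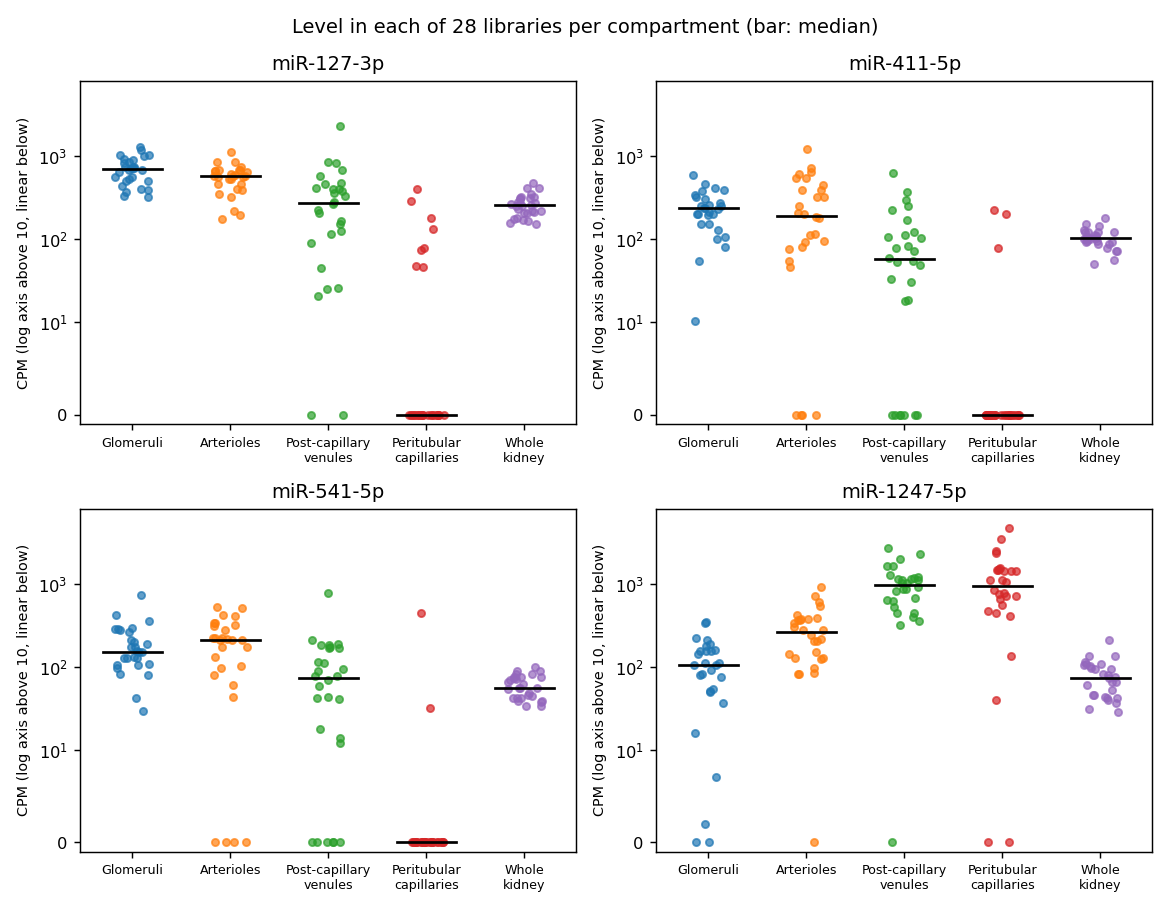
Level of 4 members in every library by compartment (CPM, log axis above 10 and linear below; 28 points each; bar: median). mmu-miR-127-3p, mmu-miR-411-5p and mmu-miR-541-5p are high in glomeruli and arterioles and mostly at 0 in peritubular capillaries, while mmu-miR-1247-5p has its highest medians in venules (963 CPM) and peritubular capillaries (942 CPM).

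Each microdissected compartment was set against the mean of the other 3 of the same mice (edgeR quasi-likelihood test on the 4 compartments of all 28 mice, the mouse as a block, Benjamini-Hochberg adjustment over 383 miRNAs). Only 18 of the 51 members had enough counts to be tested. The filter took a member that had enough counts in a few libraries of any compartment. Some could therefore enter through the compartment where they are high. mmu-miR-667-3p, for example, had no count in 7 of 7 peritubular capillary, 2 of 7 venule and 1 of 7 arteriole groups of mice, against 0 of 7 glomerular groups. Counts and medians over the 18 are not free of this selection. In glomeruli, 15 of the 18 were higher and 1 lower, beside 41.8% of all miRNAs tested called higher and 11.7% lower. On the log2 scale mmu-miR-127-3p was higher by 2.67 ± 0.284 (SE; edgeR adjusted p = 3.28e-13), mmu-miR-411-5p by 3.23 ± 0.446 (edgeR adjusted p = 4.24e-09) and mmu-miR-541-5p by 3.03 ± 0.433 (edgeR adjusted p = 1.3e-08). mmu-miR-540-3p was also higher (edgeR adjusted p = 4.07e-06), with a count in 22 of 28 glomerular, 6 arteriole, 8 venule and 1 peritubular capillary libraries. Its fitted log2 fold change of 4.47 is not a measured size, since 3 of 7 arteriole, 3 of 7 venule and 6 of 7 peritubular capillary groups of mice had no count, and it ran from 3.26 to 15.2 over other settings. mmu-miR-543-3p (3.53), mmu-miR-667-3p (3.49), mmu-miR-433-3p (3.24), a strand reported to rise in fibrotic mouse kidney, mmu-miR-434-3p (3.2), mmu-miR-379-5p (2.61), mmu-miR-485-3p (2.57), mmu-miR-382-5p (2.54), mmu-miR-376c-3p (2.48), mmu-miR-136-3p (2.24), mmu-miR-434-5p (2.04) and mmu-miR-410-3p (1.88, edgeR adjusted p = 0.0469) made up the rest. The median log2 fold change of the 18 was 2.64, against 0.48 for all miRNAs tested. These sizes, and those for arterioles, include the peritubular capillaries, where each tested member but mmu-miR-1247-5p had at least 1 group of mice with no count, so they depend on the small count added by the model. The levels per compartment given above are the measured differences. The call of mmu-miR-410-3p was lost in 19 of 37 other settings, among them single left-out mice. In the 0 h and 4 h mice alone 6 members were higher and 1 lower of 8 tested, and in the 24 h and 72 h mice alone 13 and 1 of 23.

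In arterioles, 9 of the 18 members were higher and 0 lower, beside 21.4% of all miRNAs higher and 17.5% lower. These were mmu-miR-410-3p (log2 fold change 3.34), mmu-miR-541-5p (2.92), mmu-miR-382-5p (2.66), mmu-miR-411-5p (2.66), mmu-miR-434-5p (2.35), mmu-miR-136-3p (2.23), mmu-miR-127-3p (2.21, SE 0.294, edgeR adjusted p = 7.72e-10), mmu-miR-543-3p (1.94) and mmu-miR-433-3p (1.88). The median of the 18 was 1.90, against -0.15 for all miRNAs. The split depended on scaling: with the total miRNA count alone 5 were higher and 1 lower. In the 0 h and 4 h mice alone 2 of 8 were higher, and in the 24 h and 72 h mice alone 11 of 23.

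Whether glomeruli held more of the cluster than arterioles was not settled by these counts. In the direct comparison 1 member was higher, mmu-miR-540-3p (fitted at 4.04 on the log2 scale over arterioles with no count in 3 of 7 groups of mice, edgeR adjusted p = 0.00207), and 1 lower, mmu-miR-1247-5p (-1.45, SE 0.353, edgeR adjusted p = 0.00043), beside 30.8% of all miRNAs higher and 13.3% lower, and the median of the 18 (0.44) lay at that of all miRNAs (0.46). Scaled to the total miRNA count alone, 7 were higher and 0 lower. Arterioles differed from venules in 7 members: 6 were higher, beside 18% of all miRNAs, and 1 was lower, beside 24%. The higher ones included mmu-miR-127-3p (1.39, SE 0.336, edgeR adjusted p = 0.000375), mmu-miR-411-5p (2.05) and mmu-miR-541-5p (1.87), and with the total miRNA count alone 1 was higher and 2 lower.

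In peritubular capillaries 8 of the 18 members were lower and 1 was higher, beside 34.7% of all miRNAs lower and 15.7% higher. mmu-miR-541-5p, mmu-miR-382-5p, mmu-miR-411-5p, mmu-miR-127-3p, mmu-miR-543-3p, mmu-miR-485-3p, mmu-miR-136-3p and mmu-miR-434-5p were lower, with fitted log2 fold changes of -6.39 to -4.47. All 8 had at least 1 group of mice with no count in this compartment, so the fitted sizes depend on the small count added by the model and are no measure of how much lower the members were. mmu-miR-127-3p had 39 counts in all 28 libraries together. With DESeq2 14 members were lower, and with a model in which compartment and group of mice act separately 16 were. The median depth of these libraries (22165 miRNA counts) was the lowest of the 5 kinds of sample, and their tubular markers exceeded those of glomeruli and arterioles. The part of either in this difference was not tested. Venules stood in between: 2 of the 18 were higher and 0 lower, beside 25.6% higher and 10.4% lower among all miRNAs, namely mmu-miR-1247-5p and mmu-miR-485-3p (1.74, SE 0.713, edgeR adjusted p = 0.0484), and the second lost its call in 26 of 38 other settings. One venule library, CLP at 4 h replicate 1, held 0.492% of its miRNA counts in the cluster, the highest share of any library, and without that library 1 member was called.

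**Figure D3:**
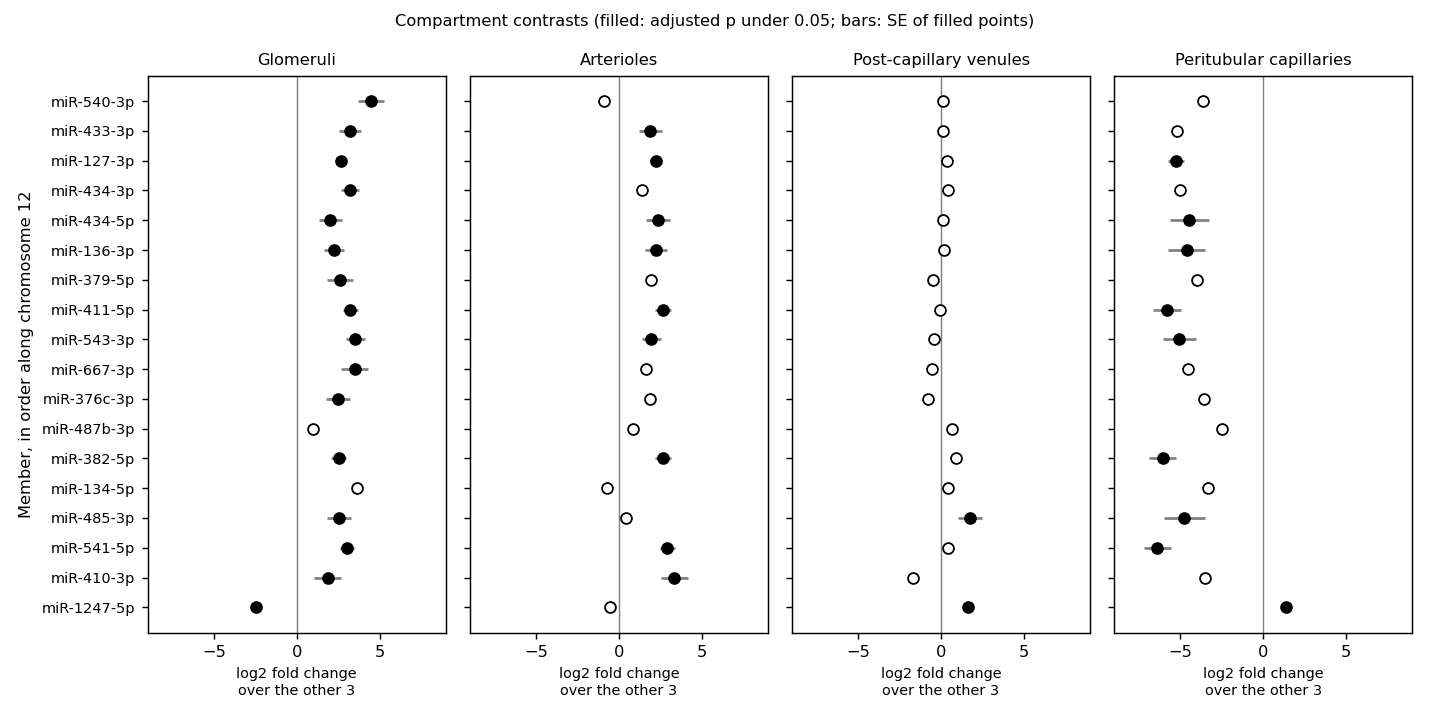
Fitted log2 fold change of the 18 tested members in each microdissected compartment over the mean of the other 3 (filled: adjusted p under 0.05; bars: SE of filled points). In glomeruli 15 filled points lie right of 0 and mmu-miR-1247-5p lies left, and in peritubular capillaries 8 lie left and mmu-miR-1247-5p lies right.

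mmu-miR-1247-5p ran against the other members. Its medians were 963 CPM in venules and 942 CPM in peritubular capillaries, 261 CPM in arterioles, 104 CPM in glomeruli and 73.8 CPM in whole kidney. Of 28 libraries each, 27 venule and 26 peritubular capillary libraries had a count of it. These 2 compartments also had the lowest median miRNA counts, 103763.5 in venules and 22165 in peritubular capillaries, against 199291.5 in arterioles and 253632 in glomeruli. Entries that name no miRNA took on average 87.2%, 97.9%, 84.7% and 78.1% of counts in the same order, and 5.58% in whole kidney. Compartment and these library properties cannot be told apart here. Against the mean of the other 3 compartments, venules had more of it (1.61 ± 0.267 on the log2 scale, SE; edgeR adjusted p = 4.8e-07), as did peritubular capillaries (1.36 ± 0.279, edgeR adjusted p = 2.19e-05). Glomeruli had less (-2.45 ± 0.325, edgeR adjusted p = 6.3e-10). The call in glomeruli held in 40 of 40 other settings, that in peritubular capillaries in 38 and that in venules in 39. In peritubular capillaries, where 928 counts of this strand were found, the 49 members outside Mir1247 had 181 counts in all. The other strand, mmu-miR-1247-3p, had 334 counts in whole kidney, 62 in 3 venule libraries, 7 in glomeruli and 0 in arterioles and peritubular capillaries, which over all libraries together allows up to 0.686 CPM and 3.78 CPM.

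Undissected kidney lay below glomeruli for the leading members. Of 28 members tested in glomeruli against whole kidney (140 libraries, the mouse as a block), 11 were higher and 3 lower, beside 21.3% of all 445 miRNAs higher and 46.7% lower. The log2 fold change was 4.24 ± 0.756 (SE) for mmu-miR-667-3p, 2.99 for mmu-miR-433-3p, 2.89 for mmu-miR-376c-3p, 1.54 for mmu-miR-541-5p and 1.40 for mmu-miR-127-3p (SE 0.273, edgeR adjusted p = 4.18e-06). The filter on low counts ran over all 140 libraries together, so members could enter through the kind of sample where they are high. The first 3 had highest whole kidney levels of only 5.09, 12.4 and 13.4 CPM. The count of 11 and the sizes of these 3 are therefore not free of that selection. mmu-miR-323-3p (-2.76), mmu-miR-668-3p (-2.49) and mmu-miR-487b-3p (-2.28) were lower in glomeruli. The first 2 rest on few glomerular counts, 32 in 7 of 28 libraries and 28 in 4 of 28. Pooled levels in glomeruli and whole kidney were 2.54 and 8.44 CPM for mmu-miR-323-3p, and 2.22 and 3.12 CPM for mmu-miR-668-3p. mmu-miR-668-3p ran from -2.54 to -0.47 and lost its call in 2 of 6 other settings. mmu-miR-487b-3p lost its call in 5 of 9 and turned to 1.84 in healthy mice alone. Scaling by RLE size factors gave 15 higher and 2 lower. Against the mean of all 4 microdissected compartments, 16 of 28 were higher in whole kidney and 1 lower, beside 60.9% and 10.1% of all miRNAs. That count does not hold up: with DESeq2 4 were higher and 7 lower, and with the model of separate effects 3 and 3. The mean includes peritubular capillary groups with no counts, and their part in this was not tested. mmu-miR-1247-5p, the lower one (-2.41, SE 0.272, edgeR adjusted p = 1.51e-13), kept its call in 9 of 9 other settings. Tissue and collection method cannot be told apart in these comparisons.

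The balance between the strands of one hairpin differed between hairpins. In counts pooled over libraries it also differed between compartments for several. For 12 hairpins both strands are members, and the share of the 3p strand among both was computed for libraries with at least 20 counts, with no test. In whole kidney the 3p strand had a median share of 70.3% for miR-434, 90.2% for miR-136, 66.3% for miR-409 and 93.6% for miR-485. It was the minor strand for miR-411 (4.99%), miR-382 (12.8%), miR-1247 (2.64%), miR-154 (14.8%) and miR-369 (16.1%), and nearer to balance for miR-379 (41.9%). Pooled over glomerular libraries the 3p share was 72.2% for miR-434 (95% Wilson interval 69.9% to 74.4%), close to the 69.9% of whole kidney (68.8% to 71.0%), and 5.97% for miR-411 (5.23% to 6.82%), against 5.08% in whole kidney (4.71% to 5.48%). The interval for miR-382 also overlapped between glomeruli (12.4%) and whole kidney (12.7%), as did that for miR-379 (33.1% and 37.1%). The 3p share was lower in glomeruli for miR-136, at 79.0% (76.0% to 81.7%) against 88.5% in whole kidney (87.1% to 89.8%). The pooled share was also lower for miR-485, at 79.5% in glomeruli (75.2% to 83.2%) against 91.8% in whole kidney (89.4% to 93.7%), for miR-409 (58.1% against 65.9%) and for miR-1247 (0.498% against 3.26%), with intervals that do not overlap. Glomerular library medians were also lower for miR-136 (76.2%) and miR-1247 (0%). The miR-409 median was not lower, at 67.2% in 10 glomerular libraries against 66.3% in whole kidney. For miR-485 it was 90.4% in 6 glomerular libraries, which ran from 0% to 100%, against 93.6%. The pooled 3p share was higher in glomeruli for miR-369, at 61.0% (52.6% to 68.8%, 136 counts) against 17.5% in whole kidney (15.4% to 19.9%, 1073 counts), and for miR-154 (36.7% of 79 counts against 19.2%). In arterioles the pooled share was 65.1% for miR-136, 54.8% for miR-434 (50.5% to 59.1%) and 4.02% for miR-379 (2.26% to 7.05%), each below whole kidney without overlap of the pooled intervals, and 57.6% for miR-369 (47.7% to 66.9%), above it. Single arteriole libraries with at least 20 counts spread widely. They ran from 31.8% to 100% for miR-136 (6 libraries, median 77.8%) and from 7.90% to 100% for miR-434 (11 libraries, median 57.6%). For miR-379 the 5 such libraries were at 0%, and miR-369 had 1 such library. The pooled arteriole shares therefore do not test a difference between compartments. Only 2 glomerular libraries had 20 counts of miR-369 and 1 of miR-154. That miR-154 library, sham at 24 h replicate 3, had a 3p share of 0%, against the direction of the pooled share. Amplified reads are not separate molecules, so the intervals cover counting error only. miR-673 and miR-380 reached 20 counts in no whole kidney library.

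Sepsis gave almost no calls in the cluster. At 4, 24 and 72 h, CLP mice were set against sham mice in each compartment (edgeR quasi-likelihood test, 28 libraries of 7 groups per compartment, Benjamini-Hochberg adjustment over all miRNAs tested). Of 15 comparisons, 14 called 0 members by edgeR, and DESeq2 called 0 in the same 14. Over all 15 comparisons, 246 tests of members were made and 13 had an unadjusted p under 0.05. Among all miRNAs tested, that share was 1.44% to 14.8% in the single comparisons. Members tested were 36 in whole kidney, 22 in glomeruli, 13 in arterioles, 10 in venules and 1 in peritubular capillaries. Few miRNAs of any kind passed: 0.185% of all tested in whole kidney at 4 h, 0.738% at 24 h and 1.85% at 72 h, 0.592%, 0% and 0.592% in glomeruli, 0.36%, 0% and 0% in arterioles, 0%, 0.498% and 0.995% in peritubular capillaries and 0%, 0% and 1.4% in venules, each at 4, 24 and 72 h.

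mmu-miR-127-3p shows the precision of these comparisons in whole kidney. At 4 h it had 415, 155, 220.0 and 305 CPM in CLP mice, against 272, 321, 316 and 169 CPM in sham mice. At 24 h the values were 182, 279, 231 and 207 CPM in CLP mice and 252, 310.0, 156 and 176 CPM in sham mice. At 72 h they were 164, 417, 260.0 and 205 CPM in CLP mice and 217, 327, 275 and 472 CPM in sham mice. CLP and sham overlapped at every time. The log2 fold changes were 0.03 (SE 0.281), -0.05 (SE 0.277) and -0.27 (SE 0.277). Over the 36 members tested in whole kidney, the median log2 fold change was 0.07 at 4 h, 0.18 at 24 h and -0.01 at 72 h, against 0.00, -0.05 and 0.03 for all miRNAs tested, and single members ran from -0.93 (mmu-miR-329-3p) to 1.45 (mmu-miR-1247-3p) at 4 h. In glomeruli the summed level of the 49 members was 1871 ± 433 CPM in CLP mice and 1787 ± 324 CPM in sham mice at 4 h (SD, n = 4 each). It was 1941 ± 929 CPM in CLP mice and 1562 ± 368 CPM in sham mice at 24 h, and 2247 ± 574 CPM in CLP mice and 2054 ± 869 CPM in sham mice at 72 h. The smallest adjusted p of a member in glomeruli was that of mmu-miR-541-5p at 24 h, with a log2 fold change of 1.59 (SE 0.583, unadjusted p = 0.01, edgeR adjusted p = 0.199). The median SE of a member's log2 fold change was 0.391 to 0.465 in whole kidney and 1.13 to 1.26 in glomeruli. It was 1.40 to 1.53 in arterioles and 1.40 to 1.49 in venules, and 0.891 to 0.942 for the 1 member tested in peritubular capillaries. Changes of such sizes could be missed there.

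The exception was mmu-miR-1247-5p in whole kidney at 72 h. It had 94.0, 104, 135 and 114 CPM in CLP mice, against 31.0, 52.7, 46.0 and 43.5 CPM in sham mice, with no overlap. The log2 fold change was 1.42 (SE 0.277, edgeR adjusted p = 0.00507), higher in 4 of 4 CLP mice than in any sham mouse, beside 1.85% of all miRNAs called. Leaving out each mouse in turn gave log2 fold changes of 1.25 to 1.48, and the call held in 14 of 14 other settings. At 24 h it had 96.3, 107, 135 and 209 CPM in CLP mice and 80.3, 81.7, 93.9 and 109 CPM in sham mice, with overlap (0.52, SE 0.27, edgeR adjusted p = 0.563). At 4 h it had 36.5, 74.8, 40.3 and 42.5 CPM in CLP mice and 42.1, 28.4, 107 and 65.8 CPM in sham mice (-0.31, SE 0.294, edgeR adjusted p = 0.999). The healthy mice had 72.8, 61.1, 45.5 and 65.4 CPM, but sets of mice differ between 0 h and 72 h. The other strand, mmu-miR-1247-3p, was not called at any time. Whole kidney RNA mixes all cells, and more cells of a type and more of the miRNA per cell cannot be told apart in it. Beside this difference at 72 h, the tubular markers summed to 6536 to 9196 CPM in CLP mice and 8696 to 11534 CPM in sham mice, and the endothelial markers to 28493 to 32443 CPM and 27922 to 31365 CPM. The part of either was not tested.

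**Figure D4:**
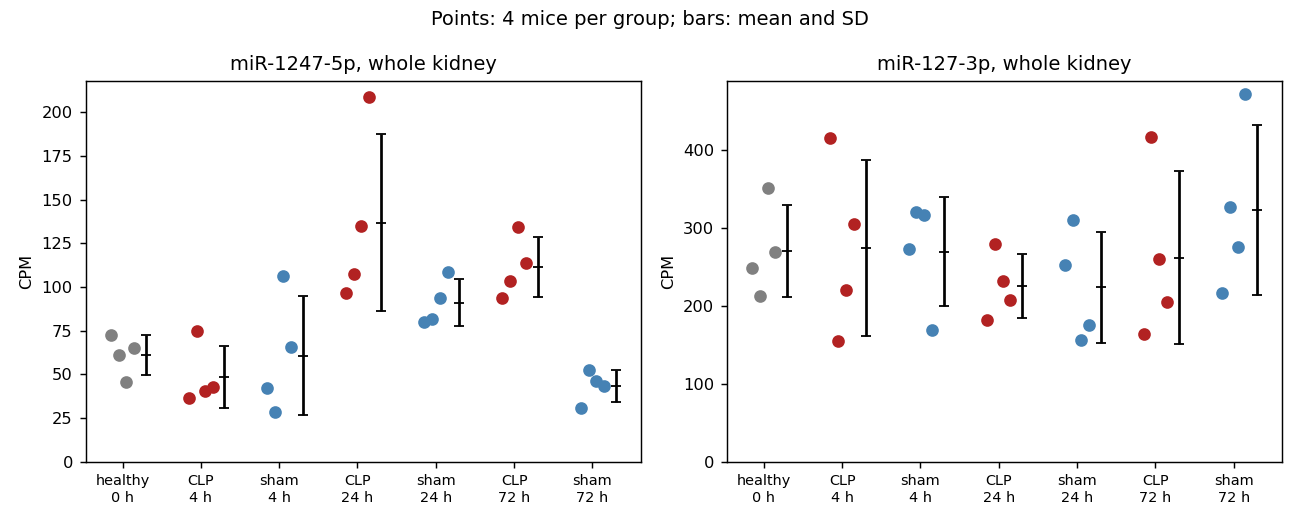
mmu-miR-1247-5p and mmu-miR-127-3p in whole kidney by group (CPM; points: 4 mice; bars: mean and SD). At 72 h the CLP mice lie at 94.0 to 135 CPM of mmu-miR-1247-5p and the sham mice at 31.0 to 52.7 CPM, while mmu-miR-127-3p overlaps between CLP and sham at each time.

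The vessels gave no call for mmu-miR-1247-5p. In venules at 72 h it had 1099.9, 2712, 1649 and 398 CPM in CLP mice and 904, 0, 674 and 1133 CPM in sham mice (log2 fold change 0.94 ± 0.612, edgeR adjusted p = 1). In glomeruli at 72 h it had 7.11, 50.6, 350.4 and 37.1 CPM in CLP mice and 0, 51.4, 92.0 and 16.1 CPM in sham mice (1.35, SE 0.898, edgeR adjusted p = 0.993). In arterioles it was at 245, 205, 545 and 126 CPM in CLP mice and 0, 203, 390.0 and 81.8 CPM in sham mice. CLP and sham overlapped in all of these compartments. In peritubular capillaries, where it was the only member tested, the log2 fold change was -1.59, 1.39 and 0.60 at 4, 24 and 72 h, with edgeR adjusted p = 0.711, 0.989 and 0.99.

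The size of the CLP effect did not pass a test of change with time. The effect at 72 h minus that at 24 h was 0.89 for mmu-miR-1247-5p in whole kidney (SE 0.384, unadjusted p = 0.0269, edgeR adjusted p = 0.656), and 0 of 36 members passed there and 0 of 22 in glomeruli by edgeR and by DESeq2, with 0% of all miRNAs called in both. An unadjusted p under 0.05 was found for 1 and 0 members, beside 6.46% and 6.51% of all miRNAs tested. Sham mice themselves changed between these times. In whole kidney, mmu-miR-1247-5p was lower in sham mice at 72 h than at 24 h (-1.16, SE 0.277, edgeR adjusted p = 0.0251, 1.11% of all miRNAs called), with no overlap between 31.0 to 52.7 CPM and 80.3 to 109 CPM, while the CLP mice, not tested over time, had 94.0 to 135 CPM and 96.3 to 209 CPM. The same 72 h sham mice are those set against CLP above. That call was lost with RLE size factors (edgeR adjusted p = 0.0564), with the total miRNA count alone (0.0751) and without sham replicate 1 or 4 (0.207 and 0.404). Many members vary together from mouse to mouse, as given below, so their signs in this comparison of sham mice are not separate observations. Of the 36 members 30 had a positive log2 fold change in it, with a median of 0.56 against -0.06 for all miRNAs. Of these, mmu-miR-136-5p (1.78), mmu-miR-409-5p (1.27), mmu-miR-369-5p (1.17), mmu-miR-409-3p (1.00), mmu-miR-487b-3p (0.84), mmu-miR-543-3p (0.70) and mmu-miR-434-3p (0.60) had an unadjusted p under 0.05, and these 7, named after their values were seen, did not pass after adjustment (smallest edgeR adjusted p = 0.108). With mmu-miR-1247-5p, 8 of the 36 members had an unadjusted p under 0.05, beside 15.3% of all miRNAs tested. In glomeruli the same comparison called 0% of all miRNAs and 0 of 22 members, and DESeq2 called 1 member. An unadjusted p under 0.05 was found for 1 of the 22, beside 4.44% of all miRNAs tested. Sham mice at 4 h against healthy mice gave 0 of 36 members in whole kidney (0.185% of all miRNAs called) and 0 of 22 in glomeruli (0%), with 0 calls by DESeq2. In each, 1 member had an unadjusted p under 0.05, beside 5.35% and 6.21% of all miRNAs tested.

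From mouse to mouse, many members of the cluster rose and fell together. Within the 28 whole kidney libraries, with group means removed, each miRNA tested was correlated with mmu-miR-127-3p on log2 CPM (permutation within groups, 100000 resamples, two-sided, adjusted over all of them). Of the 35 other members tested, 34 had a positive Pearson r, with a median of 0.62, against -0.11 for all other miRNAs. mmu-miR-382-5p had the highest r, 0.89 (Spearman rho 0.92, permutation p = 1e-05, the smallest these resamples can give, adjusted p = 0.00135), followed by mmu-miR-487b-3p (0.85), mmu-miR-382-3p (0.84), mmu-miR-409-3p (0.82), mmu-miR-136-3p (0.81), mmu-miR-541-5p (0.81), mmu-miR-543-3p (0.80), mmu-miR-369-5p (0.80), mmu-miR-411-5p (0.76) and mmu-miR-540-3p (0.72). Of all miRNAs these 10 were the most alike, and all 10 are members, 1 antisense to Rtl1 (mmu-miR-136-3p), 1 upstream (mmu-miR-540-3p) and 8 between Mir379 and Mir410. Without the 2 mice farthest from the median of mmu-miR-127-3p, the r of mmu-miR-382-5p was 0.91. It was 0.85 in the 12 mice of 0 h and 4 h and 0.93 in the 16 mice of 24 h and 72 h. Not all members held in both sets. Some that ranked lower had a negative r in the 0 h and 4 h mice, such as mmu-miR-376a-3p (-0.39, against 0.66 at 24 h and 72 h).

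In all, 17 of 35 members passed the adjusted threshold with a positive r, beside 4.07% of all miRNAs, and 15 passed by Spearman's rho. Of the 5 others that passed, miR-341-3p (0.68) and miR-299a-5p (0.62) are further strands of the locus, and miR-148a-3p (0.65), miR-296-3p (0.65) and miR-3065-5p (0.59) are not members. The 20 miRNAs most like mmu-miR-127-3p included 16 members, and 12 to 17 of them under the other measures, scalings and sets of mice. Over all 28 mice, mmu-miR-1247-5p had an r of -0.31 (rho -0.35, permutation adjusted p = 0.473), the only member with a negative value there, and mmu-miR-379-5p (0.07) and mmu-miR-431-5p (0.09) were near 0. The epithelial markers ran the other way, with a permutation adjusted p = 0.00766 for miR-429-3p (-0.72) and 0.0342 for miR-200b-3p (-0.60), and the smooth muscle pair (0.34 and 0.06), the endothelial pair (-0.23 and -0.30), the tubular pair (-0.39 and -0.37) and the mesenchymal pair (-0.12 and -0.34) did not pass. The part of tissue makeup in the shared variation was not tested.

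**Figure D5:**
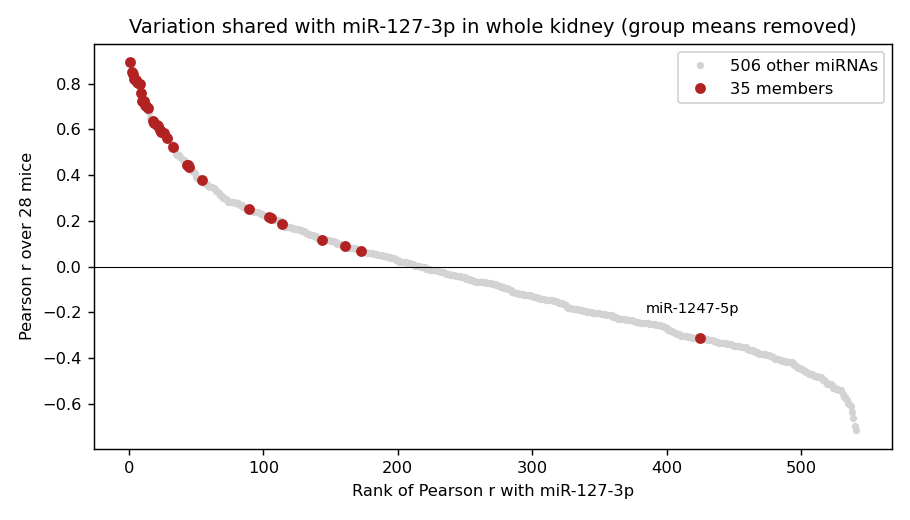
Pearson r with mmu-miR-127-3p over 28 whole kidney libraries (group means removed) by rank, for 35 members and all other miRNAs tested. The members gather at the left end, 16 of them among the first 20, and mmu-miR-1247-5p lies below 0.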

How the data were processed

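RealSeq small RNA libraries of 140 samples were used. The authors deposited raw read counts per mature miRNA, 1 column per sample; cutadapt 3.3, Bowtie 1.3.0 and builds GRCm38.p6 and GRCm39 are named in the submitters' processing notes. How reads that match several miRNAs were counted is not stated there. 10 entries that name no miRNA (on average 5.58% of counts in whole kidney, 78.1% to 97.9% in the microdissected compartments) were left out of library sizes. edgeR 4.0.16 (R 4.3.3) was run on all miRNAs with filterByExpr and TMM scaling, with an adjusted p threshold of 0.05, and the scripts were tested on simulated data. An SE is the log2 fold change over the square root of the F statistic. DESeq2 1.42.0, other scalings, no filter, subsets of mice and single mice left out were alternatives. The numbers of CLP and sham replicates did not pair mice (correlations of -0.312 to 0.353 between same-numbered deviations), whereas compartments were paired by the mouse in the labels. Correlations used log2 CPM with a prior count of 2. Positions and sequences came from RefSeq for GRCm38.p6, and host genes from a GENCODE annotation of that assembly. The members, marker lists and tests were chosen with earlier results of these data known. Named are the 8 members with the highest mean CPM in whole kidney and in glomeruli, up to 12 past the threshold per comparison, and the 10 miRNAs most like mmu-miR-127-3p, beside some picked after their values were seen. The pairs of compartments and the model with separate effects were added after seeing the data.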

Additional observations from a re-analysis of the deposited data

Results flagged for a closer look

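In 56 groups of 4 mice (4 members, 2 compartments, 7 groups), 2 had 1 library far from the rest by Dixon's test (critical value 0.829); chance flags about 1 in 20 groups. mmu-miR-1247-5p in whole kidney had 74.84 CPM in 1 mouse of CLP at 4 h, while the other 3 had 36.5 to 42.5 CPM. In glomeruli it had 350.4 CPM in 1 mouse of CLP at 72 h, while the other 3 had 7.11 to 50.6 CPM.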

How the results depend on the processing

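Counts of members past the threshold moved in subsets of mice, in which fewer mice, other depths and other numbers of tested members come together. Healthy mice alone gave 2 in glomeruli (16 with all mice), 1 in arterioles (9), 1 in peritubular capillaries (9), 0 in venules (2), 0 for glomeruli against arterioles (2), 0 for arterioles against venules (7), 1 for glomeruli against whole kidney (14) and 1 for whole kidney against the microdissected compartments (17). The 0 and 4 h mice gave 7 in glomeruli, 2 in arterioles, 5 in peritubular capillaries, 1 in venules, 1 for arterioles against venules, 9 for glomeruli against whole kidney and 2 for whole kidney. The 24 and 72 h mice gave 1 in venules, 1 for glomeruli against arterioles and 9 for whole kidney, and healthy and sham mice 9 in glomeruli, 1 in venules and 1 for glomeruli against arterioles. DESeq2 gave 15 in peritubular capillaries, 6 in venules, 4 for glomeruli against arterioles, 11 for whole kidney and 1 for glomeruli of sham mice at 72 h against 24 h (0 by edgeR). The model with separate effects gave 17 in peritubular capillaries and 6 for whole kidney. With the total miRNA count alone 7 passed for glomeruli against arterioles and 3 for arterioles against venules. In venules, no filter, libraries over 20000 counts, or leaving out the library with the highest share each gave 1. For whole kidney, RLE size factors gave 10 and the fit with no replicate block 11. For sham mice of whole kidney at 72 h against 24 h (1), RLE and total count gave 0 and no filter gave 4. Leaving out 1 mouse at a time gave 17 to 19 in glomeruli, 7 to 10 in arterioles, 7 to 9 in peritubular capillaries, 1 to 2 in venules, 2 to 3 for glomeruli against arterioles, 5 to 9 for arterioles against venules and 0 to 1 for the sham mice; CLP against sham kept its counts. The cause of these shifts was not tested.

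With DESeq2, whole kidney against the microdissected compartments turned negative for mmu-miR-134-5p (-1.39), mmu-miR-300-3p (-0.53), mmu-miR-379-5p (-0.73), mmu-miR-382-3p (-0.49), mmu-miR-382-5p (-0.47), mmu-miR-409-5p (-0.26), mmu-miR-410-3p (-0.16), mmu-miR-411-5p (-0.0906), mmu-miR-434-3p (-0.00275), mmu-miR-540-3p (-0.95) and mmu-miR-668-3p (-0.80); mmu-miR-540-3p was at -0.094 in the model with separate effects. mmu-miR-487b-3p in glomeruli against whole kidney was at 1.84 in healthy mice. A replicate block, though the numbers pair no mice, changed no call of CLP against sham, and mmu-miR-1247-5p at 72 h kept an adjusted p of 0.00421 with the replicate block. The depth of peritubular capillary libraries limits every statement on low members there.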
